A study of Mus musculus with 12 samples.

Results

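The collagen genes of MC38/hPD-L1 tumors were examined across 3 treatments. A gene was taken as a member when its name in the count table was Col, a chain type number, the letter a and a chain number, which found 43 of the 33018 genes listed. Of these, 31 reached 10 counts in at least 4 of the 12 tumors and are called measured here, and the same 31 passed the filter on low counts and were tested. MC38/hPD-L1 is a mouse colorectal adenocarcinoma line that was transduced with human PD-L1, the checkpoint ligand that both drugs bind. Cells were implanted under the flank skin of female C57BL/6NJ mice, 8 to 10 weeks old at study start, so the tumors held host stroma as well as the implanted line. Each mouse received a single intraperitoneal injection on day 8: 100 µg ALPN-202 (a variant CD80 immunoglobulin V domain fused to Fc), 100 µg anti-PD-L1 (durvalumab), or 75 µg of an Fc control protein. Bulk RNA came from 4 tumors of each group taken 72 h later, and the replicates are these tumors.

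Collagens are triple-helical proteins built from 3 chains, each chain the product of its own gene. Fibrillar collagens (types I, II, III, V, XI, XXIV and XXVII) form or regulate the fibers of connective tissue, type IV forms the network of basement membranes, and type VI forms beaded filaments around cells. FACIT collagens bind to the surface of fibrils, and other types anchor epithelia, span membranes or carry an endostatin domain. In tumors, fibroblasts are the best known source of the interstitial collagens, while endothelial cells and pericytes make much of the type IV network.

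The libraries held 3988266 to 10692817 counts, and collagen genes took 1.34% to 1.90% of the counts in 10 tumors but 0.388% in ALPN-202 tumor 4 and 0.426% in Fc control tumor 1. In these libraries long transcripts were low in general. Against the median of the other 3 tumors of its group, the median log2 CPM ratio of tested genes with transcripts of 3000 to 12000 bases was -0.57 in ALPN-202 tumor 4 and -0.38 in Fc control tumor 1, whereas that of genes under 1500 bases was 1.12 and 0.79. The longest transcripts of the collagen genes run from 3046 to 11511 bases, and their median ratio was -1.49 in ALPN-202 tumor 4, with 28 of 31 genes below 0, and -1.79 in Fc control tumor 1, with 31 of 31 below. The calls, overlaps and main medians are therefore also given over the other 10 tumors. ALPN-202 tumor 4 also had the lowest T cell (97.2 TPM) and macrophage (2476 TPM) marker sums of its group, so leaving it out touches more than collagen. Its T cell sum still lay above every Fc control tumor (41.1 to 76.2 TPM), and its macrophage sum below every one (3054 to 4738 TPM). The paper describes an ALPN-202 mouse without raised immune markers, speculates that it was not fully dosed and does not number it. Whether tumor 4 came from that mouse was not tested. The labelled cell type was also checked: 10 epithelial markers (Krt8, Epcam, Cdh1 and others) summed to 8.10 to 59.1 TPM in ALPN-202 tumors, 11.1 to 1174 TPM in anti-PD-L1 tumors and 7.05 to 123 TPM in Fc control tumors, and 8 of the 10 were at 0 in at least 1 tumor, so epithelial transcripts were scarce in most of these tumors. In bulk RNA, fewer cells of a type and less RNA per cell cannot be told apart.

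**Figure D1:**
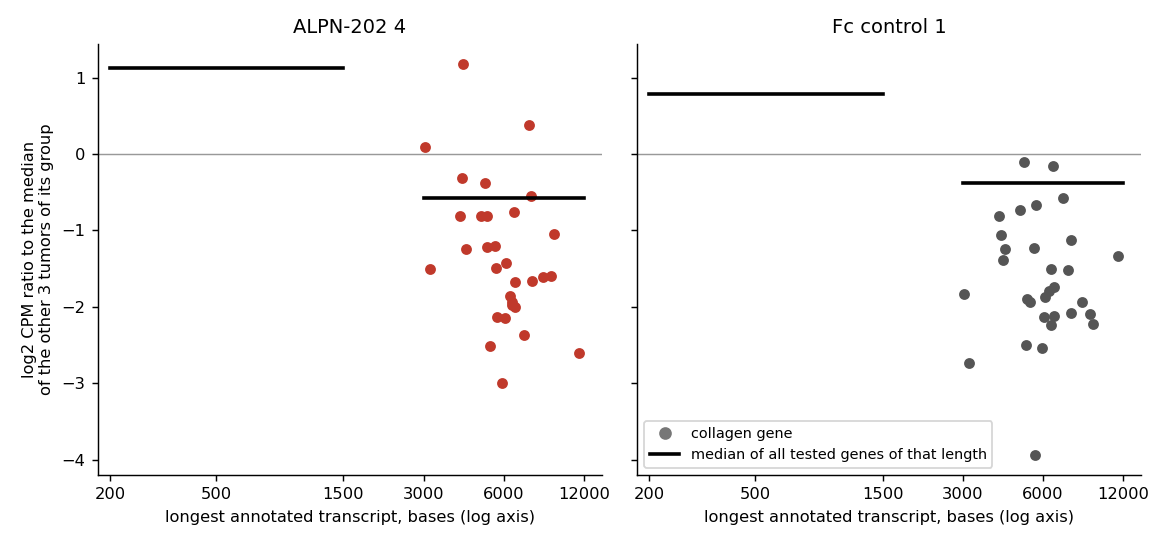
Log2 ratio of CPM in ALPN-202 tumor 4 (left) and Fc control tumor 1 (right) to the median of the other 3 tumors of its group, against transcript length in bases (log axis), with a point for each of the 31 collagen genes and a bar for the median of all tested genes of that length. The collagen genes have medians of -1.49 and -1.79, below the -0.57 and -0.38 of all genes with transcripts of 3000 to 12000 bases.

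The 10 measured members with the highest mean level were, in falling order of mean TPM (a scale that divides counts by gene length and depth), Col3a1, Col1a1, Col6a1, Col1a2, Col6a2, Col6a3, Col4a1, Col4a2, Col5a1 and Col5a3. They are the chains of types I, III, IV, V and VI, which together made up 90.2% to 93.2% of the summed collagen TPM in every tumor. The sum over all collagen genes was 960 to 6988 TPM in ALPN-202 tumors, 5136 to 6437 TPM in anti-PD-L1 tumors and 1284 to 6071 TPM in Fc control tumors. Without the tumors of low collagen share, the range over the other 10 was 4596 to 6988 TPM. Over these 10 tumors the range of log2 CPM had a median of 1.37 across the 31 collagen genes, many of them low, against 0.69 across the 14142 tested genes. The ranges of 6 collagen genes, including the abundant Col3a1, Col4a1, Col4a2, Col5a1 and Col6a3, were at or under that all-gene median.

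Col3a1 (chr1:45368383-45406551, + strand, NCBIM37) encodes the single chain of type III collagen, which forms fibers with type I in loose connective tissue. Its TPM was 1413, 1197, 1731 and 316 in ALPN-202 tumors, 1847, 1544, 1283 and 2069 in anti-PD-L1 tumors, and 398, 1109, 1704 and 1405 in Fc control tumors. The groups overlapped, and ALPN-202 tumor 4 and Fc control tumor 1 were the lowest. In edgeR its log2 fold change was 0.12 (SE 0.33, adjusted p = 1.00) for ALPN-202 against Fc control, 0.48 (SE 0.33, adjusted p = 0.826) for anti-PD-L1 against Fc control and -0.36 (SE 0.33, adjusted p = 0.680) for ALPN-202 against anti-PD-L1. The sign of the first value turned under 4 alternatives, with values down to -0.12 without Fc control tumor 1.

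Col1a1 (chr11:94797538-94814356, + strand) and Col1a2 (chr6:4454814-4491543, + strand) encode the α1 and α2 chains of type I collagen, the main fiber of skin, tendon and scar. Col1a1 stood at 1251, 859, 1291 and 81.2 TPM in ALPN-202 tumors, 521, 737, 649 and 322 TPM in anti-PD-L1 tumors, and 69.7, 619, 492 and 612 TPM in Fc control tumors. ALPN-202 tumors 1 to 3 lay above all tumors of both other groups, while ALPN-202 tumor 4 lay below all but Fc control tumor 1. Col1a2 followed with 1074, 724, 1027 and 90.1 TPM in ALPN-202 tumors, 393, 643, 521 and 255 TPM in anti-PD-L1 tumors, and 76.5, 475, 390 and 440 TPM in Fc control tumors, with the same tumors high and low. Over all 12 tumors neither gene passed the edgeR test: against Fc control, ALPN-202 had a log2 fold change of 1.01 for Col1a1 (SE 0.62, adjusted p = 0.759) and 1.13 for Col1a2 (SE 0.55, adjusted p = 0.600), and against anti-PD-L1 0.74 (SE 0.62, adjusted p = 0.669) and 0.79 (SE 0.55, adjusted p = 0.638). For anti-PD-L1 against Fc control the log2 fold changes were 0.27 (Col1a1, SE 0.62, adjusted p = 0.880) and 0.34 (Col1a2, SE 0.55, adjusted p = 0.838), and that of Col1a1 was below 0, at -0.060, without Fc control tumor 1. Over 10 tumors, ALPN-202 against Fc control gave 1.02 for Col1a1 (SE 0.31, adjusted p = 0.072) and 1.15 for Col1a2 (SE 0.33, adjusted p = 0.057), both still short of the threshold of 0.05.

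Type VI collagen is assembled from α1 and α2 chains with one of several long α3-like chains. Col6a1 (chr10:76171537-76188913, - strand) had 323, 380, 532 and 106 TPM in ALPN-202 tumors, 844, 445, 516 and 935 TPM in anti-PD-L1 tumors, and 238, 507, 784 and 631 TPM in Fc control tumors. Col6a2 (chr10:76058507-76086375, - strand), which lies 85161 bases away on the same strand, had 215, 239, 359 and 66.6 TPM in ALPN-202 tumors, 539, 300, 324 and 540 TPM in anti-PD-L1 tumors, and 165, 316, 478 and 412 TPM in Fc control tumors. For both genes the groups overlapped, with anti-PD-L1 tumors 1 and 4 the highest of the series. Col6a3 (chr1:92663435-92740529, - strand), the long chain that carries the endotrophin fragment, had 287, 345, 367 and 55.5 TPM in ALPN-202 tumors, 379, 338, 393 and 521 TPM in anti-PD-L1 tumors, and 56.1, 291, 478 and 361 TPM in Fc control tumors. Col6a4 (chr9:105891785-105999114, - strand), another α3-like chain, was far lower, at 0.637, 0.817, 0.746 and 0.488 TPM in ALPN-202 tumors, 2.43, 1.01, 1.26 and 1.51 TPM in anti-PD-L1 tumors, and 0.369, 1.58, 1.83 and 1.65 TPM in Fc control tumors. All ALPN-202 tumors lay below all anti-PD-L1 tumors for Col6a4, and below all Fc control tumors but tumor 1.

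Col6a1, Col6a2 and Col6a4 had the 3 smallest p values of collagen genes for ALPN-202 against anti-PD-L1, and 0 of them held after adjustment in edgeR. The log2 fold changes were -0.84 for Col6a1 (SE 0.32, adjusted p = 0.419), -0.77 for Col6a2 (SE 0.30, adjusted p = 0.447) and -0.91 for Col6a4 (SE 0.38, adjusted p = 0.495). Against Fc control, ALPN-202 had -0.59 for Col6a1 (SE 0.31, adjusted p = 0.654) and -0.79 for Col6a4 (SE 0.38, adjusted p = 0.585). Anti-PD-L1 against Fc control had 0.25 for Col6a1 (SE 0.31, adjusted p = 0.826). The fold changes of all 4 measured type VI genes were below 0 in both ALPN-202 comparisons, with a median of -0.58 against Fc control and -0.80 against anti-PD-L1. Over 10 tumors the medians were -0.55 and -0.64, again with 0 of 4 above 0.

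The basement membrane class held 3 measured genes of 6. Col4a1 (chr8:11198423-11312826, - strand) and Col4a2 (chr8:11312805-11449287, + strand) encode the 2 chains of the common type IV trimer, lie head to head and share 22 annotated bases at chr8:11312805-11312826. Col4a1 had 298, 289, 383 and 48.3 TPM in ALPN-202 tumors, 351, 444, 300 and 413 TPM in anti-PD-L1 tumors, and 47.9, 268, 363 and 338 TPM in Fc control tumors. Col4a2 had 228, 227, 288 and 30.9 TPM in ALPN-202 tumors, 272, 311, 230 and 309 TPM in anti-PD-L1 tumors, and 34.2, 203, 279 and 253 TPM in Fc control tumors. Both genes lay close together across the 10 tumors without the low ones, and the ranges of the groups overlapped. Col4a5 (chrX:137909928-138123778, + strand), a chain of the kidney type IV network, had 2.40, 3.49, 2.85 and 0.833 TPM in ALPN-202 tumors, 3.44, 3.45, 3.01 and 3.99 TPM in anti-PD-L1 tumors, and 1.26, 1.95, 3.62 and 2.12 TPM in Fc control tumors. Its log2 fold change of 0.53 (SE 0.24) had the smallest p among collagen genes for anti-PD-L1 against Fc control, with an edgeR adjusted p of 0.826. The median log2 fold change of the 3 genes was 0.10 for ALPN-202 against Fc control, 0.53 for anti-PD-L1 against Fc control and -0.41 for ALPN-202 against anti-PD-L1. Over 10 tumors these medians were nearer 0, at 0.064, 0.23 and -0.18.

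Type V collagen sits inside type I fibrils and limits their width. Its Col5a1 chain had 172, 179, 220 and 29.1 TPM in ALPN-202 tumors, 242, 185, 214 and 298 TPM in anti-PD-L1 tumors, and 38.3, 169, 269 and 220 TPM in Fc control tumors. Its Col5a3 chain had 123, 116, 166 and 23.6 TPM in ALPN-202 tumors, 171, 184, 177 and 193 TPM in anti-PD-L1 tumors, and 35.5, 136, 226 and 199 TPM in Fc control tumors. All ALPN-202 tumors were below all anti-PD-L1 tumors for Col5a3, while Col5a1 overlapped. Col5a2 (chr1:45431166-45560127, - strand), which lies 24614 bases from Col3a1 and was singled out after its values were seen, had 167, 122, 144 and 17.9 TPM in ALPN-202 tumors, 91.8, 115, 88.5 and 74.2 TPM in anti-PD-L1 tumors, and 16.9, 80.2, 84.7 and 84.9 TPM in Fc control tumors. ALPN-202 tumors 1 to 3 were above every other tumor, and the lowest values were in the libraries of low collagen share. Over all 12 tumors its log2 fold change for ALPN-202 against Fc control was 0.83 (SE 0.45, edgeR adjusted p = 0.681), and over 10 tumors it rose by 0.84 (SE 0.19, adjusted p = 0.0297).

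**Figure D2:**
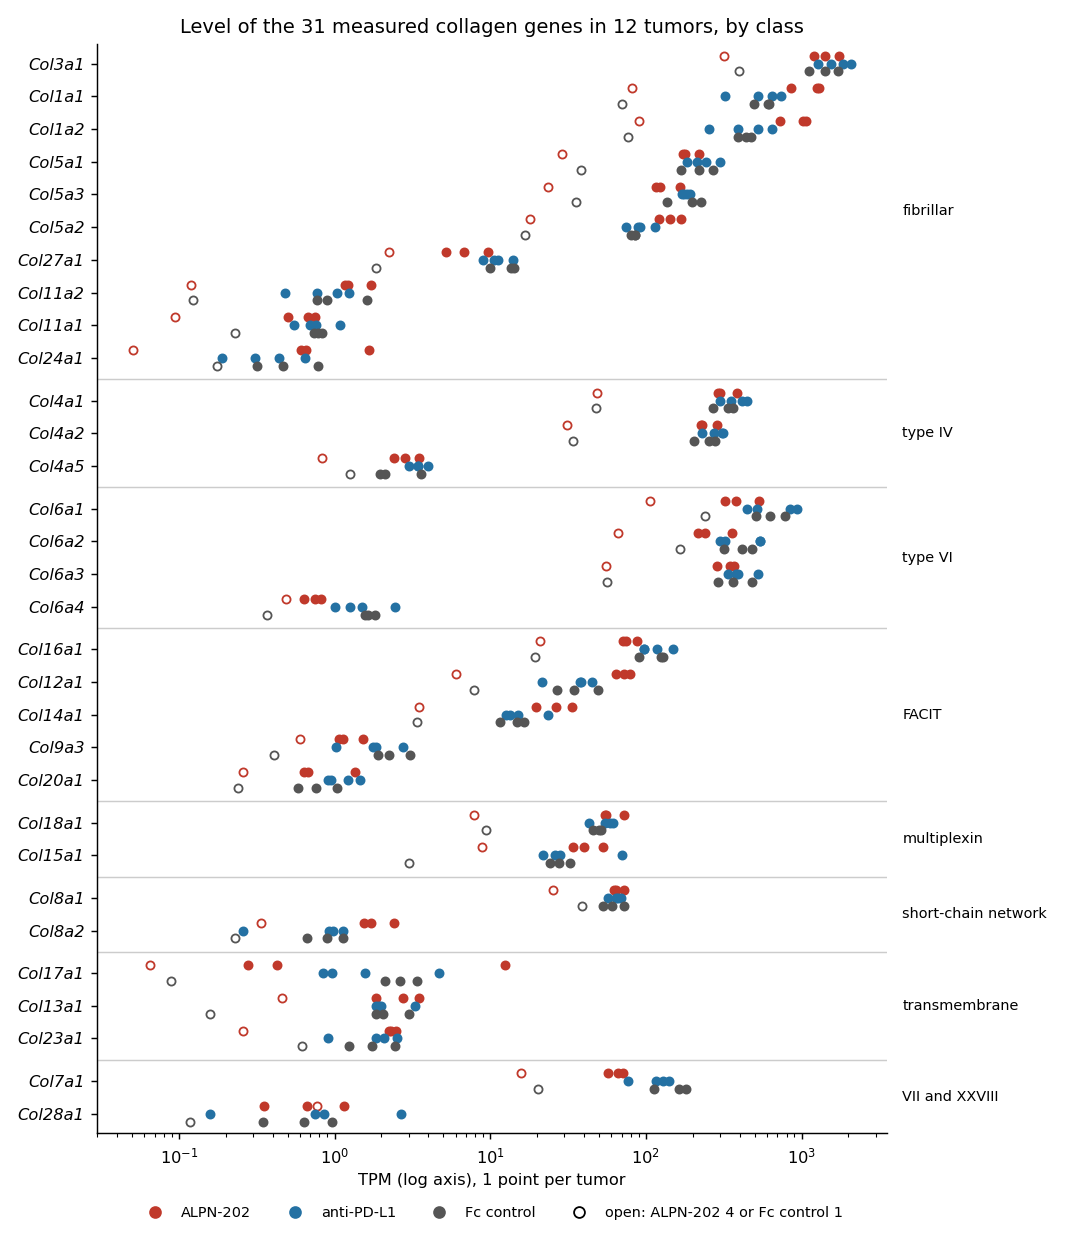
Deposited TPM of the 31 measured collagen genes in each tumor on a log axis, by treatment (4 tumors a group), with ALPN-202 tumor 4 and Fc control tumor 1 drawn as open points. ALPN-202 tumors 1 to 3 sit above the other groups for Col1a1 (859 to 1291 TPM) and below Fc control tumors 2 to 4 for Col7a1 (56.7 to 71.4 TPM, against 112 to 181 TPM).

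Col7a1 (chr9:108855631-108886920, + strand) encodes the anchoring fibril chain that fastens the epidermal basement membrane to the dermis. It had 56.7, 66.2, 71.4 and 15.7 TPM in ALPN-202 tumors, 128, 76.5, 116 and 141 TPM in anti-PD-L1 tumors, and 20.2, 112, 163 and 181 TPM in Fc control tumors. Every ALPN-202 tumor was below every anti-PD-L1 tumor and below Fc control tumors 2 to 4. In edgeR over 12 tumors the log2 fold change of ALPN-202 was -1.05 against Fc control (SE 0.44, adjusted p = 0.484) and -0.95 against anti-PD-L1 (SE 0.43, adjusted p = 0.539). Over 10 tumors Col7a1 was the only collagen gene that passed in both ALPN-202 comparisons, where on the log2 scale it fell by 1.18 against Fc control (SE 0.20, adjusted p = 0.0139) and by 0.78 against anti-PD-L1 (SE 0.19, adjusted p = 0.0403). Keratinocyte genes, which include markers of cells that make type VII collagen, are given beside Col17a1.

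Col8a2 (chr4:125964037-125991574, + strand) encodes a short-chain network collagen best known from the membrane under the corneal endothelium. It was low, with 2.39, 1.70, 1.54 and 0.335 TPM in ALPN-202 tumors, 1.13, 0.920, 0.980 and 0.259 TPM in anti-PD-L1 tumors, and 0.231, 1.13, 0.669 and 0.891 TPM in Fc control tumors. The highest values of the series were those of ALPN-202 tumors 1 to 3. Its log2 fold change for ALPN-202 against Fc control was 1.10 (SE 0.51, edgeR adjusted p = 0.557), the smallest p among collagen genes with a positive fold change.

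Col7a1 and Col8a2 had the smallest p in each direction for ALPN-202 against Fc control, so the bases just upstream of both annotated gene starts are shown. They are RefSeq promoter sequences (table build GRCm38.p6), each found once in NCBIM37 at chr9:108855381-108855630 (+ strand, 250 bases) and at chr4:125963788-125964036 (+ strand, 249 bases, ending before the first annotated base), with 0 annotated exons in either. Capitals mark CCAAT and GGGCGG on either strand, which read ATTGG and CCGCCC on the other one.
Col7a1: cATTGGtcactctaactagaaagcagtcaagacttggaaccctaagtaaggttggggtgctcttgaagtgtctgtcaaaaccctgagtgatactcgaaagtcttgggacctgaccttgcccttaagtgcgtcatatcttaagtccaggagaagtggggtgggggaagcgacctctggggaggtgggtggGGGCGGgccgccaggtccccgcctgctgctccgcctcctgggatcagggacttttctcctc
Col8a2: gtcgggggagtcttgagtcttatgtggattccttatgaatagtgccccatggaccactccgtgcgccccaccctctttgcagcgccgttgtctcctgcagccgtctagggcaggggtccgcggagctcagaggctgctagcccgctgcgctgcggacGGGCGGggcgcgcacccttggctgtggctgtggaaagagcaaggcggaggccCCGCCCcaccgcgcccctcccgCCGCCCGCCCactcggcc
The Col7a1 window held 1 CCAAT and 1 GGGCGG, and the Col8a2 window 0 CCAAT and 4 GGGCGG, of which the last 2 overlap. Of 32851 RefSeq promoters, 33.8% held CCAAT and 32.7% held GGGCGG in the same stretch, and of the 26 measured collagen genes with an entry, 11 and 16 did. TATAAA, on either strand, was in 12.4% of all promoters and in those of Col3a1, Col11a2, Col13a1 and Col17a1. The percentages count promoters, whereas a gene counted when any of its promoters held the letters, so the shares are not directly comparable. A match of letters is a description only.

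The 4 members with the widest spread over the 12 tumors were Col17a1, Col15a1, Col1a1 and Col28a1, with ranges of 5.81, 3.97, 3.64 and 3.41 in log2 CPM. Col17a1 (chr19:47720834-47766584, - strand), a transmembrane collagen of the hemidesmosomes of basal keratinocytes, had 0.424, 12.4, 0.278 and 0.0650 TPM in ALPN-202 tumors, 1.58, 4.67, 0.840 and 0.965 TPM in anti-PD-L1 tumors, and 0.089, 3.37, 2.12 and 2.64 TPM in Fc control tumors. The value of ALPN-202 tumor 2 stood alone. The 10 keratinocyte markers summed to 21.7 to 658 TPM in ALPN-202 tumors, 29.5 to 121 TPM in anti-PD-L1 tumors and 46.1 to 508 TPM in Fc control tumors, with the highest sum in ALPN-202 tumor 2. Of the 9 that were tested, 0 had a fold change above 0 for ALPN-202 against Fc control (median -0.33), and 0 were called. For ALPN-202 against anti-PD-L1, where Col7a1 was lower, 7 of the 9 were above 0 (median 0.87), and over 10 tumors 8 of 9 (median 1.17). In this comparison only the sum of ALPN-202 tumor 2 (658 TPM) lay above the anti-PD-L1 tumors. ALPN-202 tumors 1, 3 and 4 had 26.5, 21.7 and 25.4 TPM, below every anti-PD-L1 tumor. The part of the keratinocyte markers in the values of Col17a1 and Col7a1 was not tested.

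Col15a1 (chr4:47221033-47326039, + strand) is a multiplexin of vessel, muscle and fat basement membranes, whose C-terminal domain resembles endostatin. It had 40.2, 34.0, 53.1 and 8.92 TPM in ALPN-202 tumors, 21.9, 70.7, 25.9 and 27.9 TPM in anti-PD-L1 tumors, and 2.99, 24.2, 27.6 and 32.7 TPM in Fc control tumors. ALPN-202 tumors 1 to 3 lay above the Fc control tumors, and anti-PD-L1 tumor 2 was the highest of all. In that tumor the adipocyte (14878 TPM), endothelial (378 TPM) and epithelial (1174 TPM) marker sums were also the highest of the series, and their part was not tested. Col28a1 (chr6:7947808-8142617, - strand), whose product is found around Schwann cells in mice, had 0.350, 0.667, 1.15 and 0.772 TPM in ALPN-202 tumors, 0.751, 2.67, 0.158 and 0.850 TPM in anti-PD-L1 tumors, and 0.118, 0.347, 0.633 and 0.966 TPM in Fc control tumors, with no order between groups. Col20a1 (chr2:180721240-180752245, + strand), a FACIT collagen, had 1.34, 0.674, 0.636 and 0.260 TPM in ALPN-202 tumors, 1.23, 0.951, 0.907 and 1.45 TPM in anti-PD-L1 tumors, and 0.238, 0.759, 0.586 and 1.03 TPM in Fc control tumors. The groups overlapped, and its log2 fold change for anti-PD-L1 against Fc control was 0.66 (SE 0.39, edgeR adjusted p = 0.826).

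The remaining measured members were of moderate or low level. Col8a1, the partner of Col8a2, lay at 25.4 to 72.4 TPM in ALPN-202 tumors, 57.4 to 69.7 TPM in anti-PD-L1 tumors and 38.8 to 72.4 TPM in Fc control tumors, and had the smallest range of all collagen genes over 10 tumors, 0.43 in log2 CPM. Col18a1, the multiplexin that contains endostatin, lay at 7.91 to 72.8, 43.2 to 61.2 and 9.38 to 51.3 TPM in ALPN-202, anti-PD-L1 and Fc control tumors, and Col16a1, a FACIT collagen, at 21.0 to 87.2, 96.7 to 150.0 and 19.5 to 129 TPM. The fibril-associated Col12a1 and Col14a1, described after their values were seen, were higher in ALPN-202 tumors 1 to 3 than in Fc control tumors 2 to 4. Col12a1 had 78.6, 64.3, 72.7 and 5.99 TPM in ALPN-202 tumors, 38.4, 37.5, 44.8 and 21.4 TPM in anti-PD-L1 tumors, and 7.85, 49.3, 34.5 and 26.8 TPM in Fc control tumors. The log2 fold changes for ALPN-202 against Fc control were 0.94 and 0.92, and neither passed over 12 tumors or over 10. Col27a1 lay between 1.84 and 14.2 TPM, and Col9a3, Col11a1, Col11a2, Col13a1, Col23a1 and Col24a1 at or under 3.47 TPM in every tumor. Of exonic bases, at most 1.66% were shared with another gene, except in Col9a3 (6.07%, with Tcfl5 on the opposite strand), and the libraries do not keep strand.

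The 12 members that were not measured were Col2a1, Col9a1, Col9a2 and Col10a1 of cartilage, Col4a3, Col4a4 and Col4a6 of specialized basement membranes, Col6a5, Col6a6, Col19a1, Col22a1 and Col25a1. Col10a1 and Col19a1 had 0 counts in every tumor. Anti-PD-L1 tumor 2 alone held 47 counts of Col9a2 and 62 of Col4a6, against at most 16 and 10 in any other tumor.

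In the whole table, no collagen gene passed an adjusted p of 0.05 in edgeR over 12 tumors: 0 of 31 in each comparison, where 0.0% of the 14142 genes did. At an unadjusted p under 0.05, ALPN-202 against Fc control had 0 collagen genes higher and 1 lower (Col7a1), against a background of 7.2% and 1.98% of genes. Anti-PD-L1 against Fc control had 0 and 0, against 1.44% and 0.629%. ALPN-202 against anti-PD-L1 had 0 higher and 3 lower, against 6.82% and 2.47%. DESeq2 called 0 collagen genes in each comparison, although it called 1.64% of genes for ALPN-202 against Fc control and 1.43% for ALPN-202 against anti-PD-L1. Limma on log2 TPM also called 0 collagen genes, where it called 0 of all 14078 genes.

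Over 10 tumors, ALPN-202 against Fc control called 1 collagen gene higher (Col5a2) and 1 lower (Col7a1), where 5.47% of all genes were higher and 2.0% lower. ALPN-202 against anti-PD-L1 called 0 higher and 1 lower (Col7a1), where 4.5% and 0.702% of all genes were. Anti-PD-L1 against Fc control called 0, where 0.0% of genes were called in either direction. At an unadjusted p under 0.05, 7 collagen genes were higher and 6 lower for ALPN-202 against Fc control (background 14.3% and 11.7%), 1 and 0 for anti-PD-L1 against Fc control (2.15% and 1.97%), and 7 and 7 for ALPN-202 against anti-PD-L1 (12.3% and 8.57%). The libraries left out were chosen with these data known, so the calls over 10 tumors are not independent evidence.

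**Figure D3:**
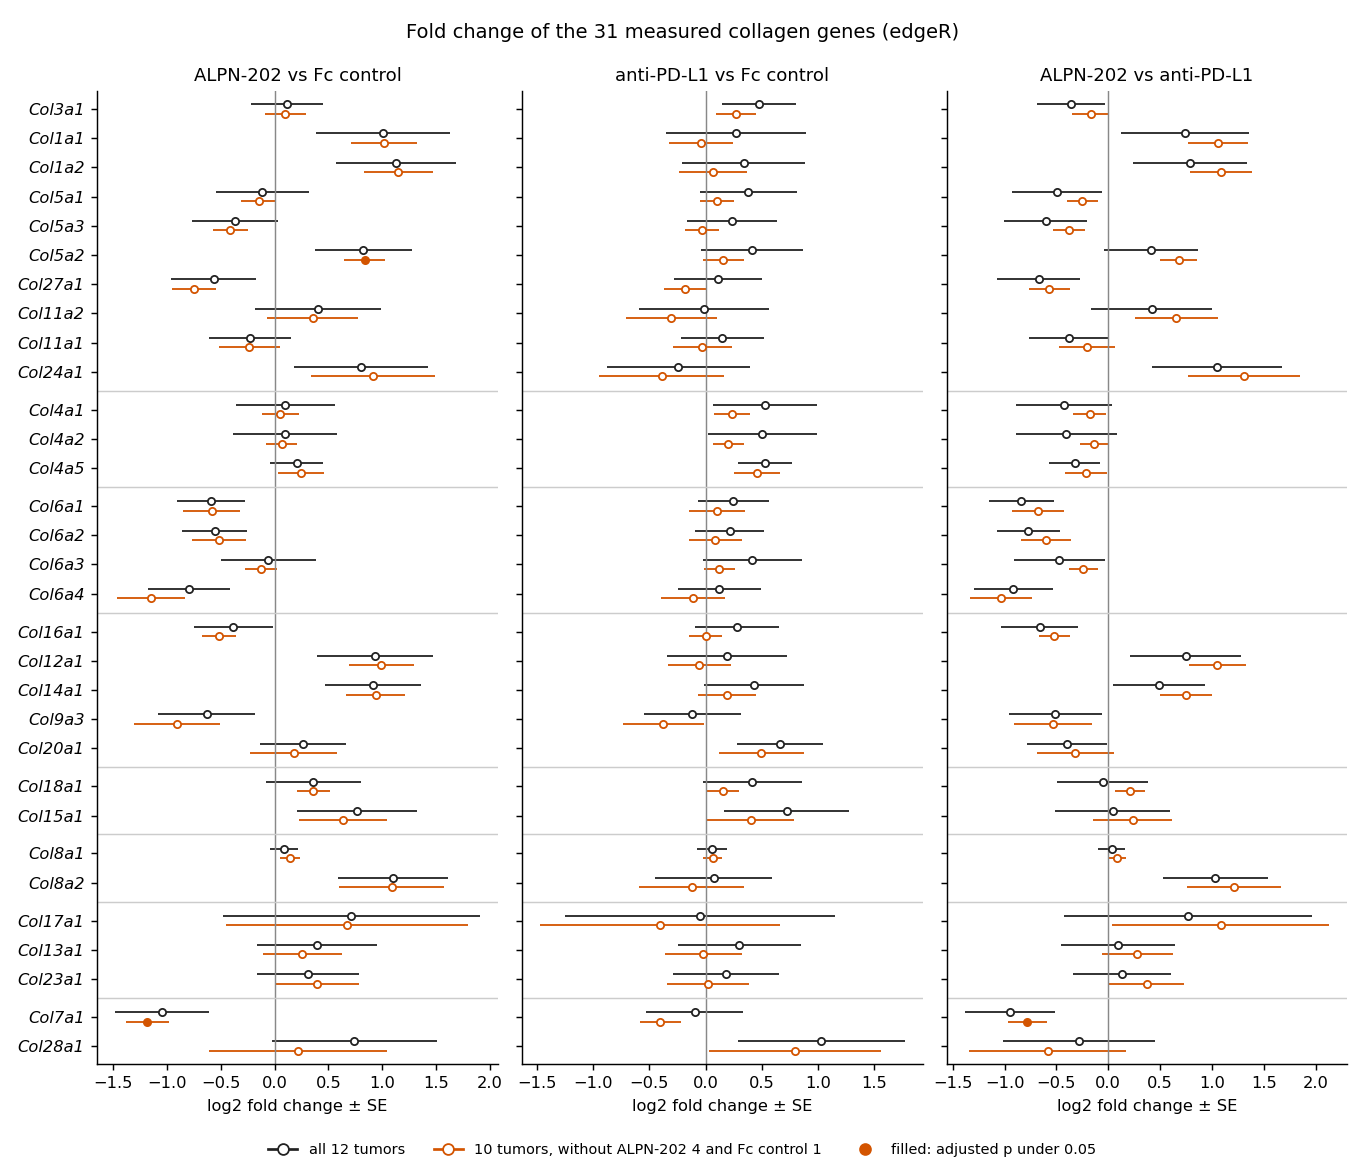
edgeR log2 fold change of each tested collagen gene with its standard error, over 12 tumors (black) and over 10 tumors (orange, filled where the adjusted p is under 0.05), with members grouped by class. Over 12 tumors the 4 type VI genes lie below 0 in both ALPN-202 comparisons (medians -0.58 and -0.80), and 0 of 31 genes passed the adjusted threshold.

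As a list, the 31 genes had a median log2 fold change of 0.20 for ALPN-202 against Fc control, with 20 above 0, where the median over all tested genes was 0.04. For anti-PD-L1 against Fc control the median was 0.27, with 26 above 0, against -0.03 over all genes. For ALPN-202 against anti-PD-L1 it was -0.32, with 13 above 0, against 0.07 over all genes. Both Fc comparisons use the same 4 Fc control tumors, and over 10 tumors the medians were 0.18, 0.061 and -0.17, with 20, 17 and 14 genes above 0, against all-gene medians of -0.029, 0.016 and -0.051. The excess above 0 for anti-PD-L1 against Fc control, 26 genes over 12 tumors, was thus mostly gone over 10. By class, ALPN-202 against Fc control gave 0.26 for the 10 fibrillar genes (6 above 0) and 0.29 for the 18 others (11 above 0), so both directions were present in either class.

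The groups were also compared by whether their TPM values overlapped. Over 12 tumors, 0 collagen genes had every ALPN-202 tumor above or below every Fc control tumor (background 1.04% of genes higher and 3.38% lower), and 0 did so for anti-PD-L1 against Fc control (0.852% and 0.994%). For ALPN-202 against anti-PD-L1, 0 were wholly higher (1.38%) and 4 wholly lower (6.12%), namely Col5a3, Col7a1, Col6a4 and Col16a1. Over 10 tumors, ALPN-202 was wholly above Fc control for 8 genes (15.4%): Col1a1, Col1a2, Col5a2, Col8a2, Col12a1, Col14a1, Col15a1 and Col18a1. It was wholly below for 5 (15.8%): Col6a4, Col7a1, Col9a3, Col16a1 and Col27a1. Against anti-PD-L1 it was wholly above for 5 genes (11.3%) and wholly below for 4 (8.94%), and for anti-PD-L1 against Fc control 0 genes were wholly above (1.14%) or below (2.22%).

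The makeup of the collagen RNA is described without a test, since shares of 1 sum move together. Type I chains took 39.0%, 31.1%, 33.2% and 17.8% of the summed collagen TPM in ALPN-202 tumors, 14.9%, 24.2%, 22.8% and 8.96% in anti-PD-L1 tumors, and 11.4%, 23.8%, 14.5% and 19.2% in Fc control tumors. The highest type I shares were those of ALPN-202 tumors 1 to 3, and ALPN-202 tumor 4 lay among the Fc control tumors. Type VI chains took 13.8%, 18.9%, 18.0% and 23.8% in ALPN-202 tumors, 28.8%, 19.0%, 24.0% and 31.0% in anti-PD-L1 tumors, and 35.8%, 24.3%, 28.7% and 25.7% in Fc control tumors. Every ALPN-202 tumor had a smaller type VI share than every Fc control tumor, ALPN-202 tumor 4 included. All fibrillar chains together took 58.4% to 70.5% in ALPN-202 tumors, 50.1% to 59.9% in anti-PD-L1 tumors and 49.6% to 56.6% in Fc control tumors, so ALPN-202 and Fc control tumors did not overlap. The share of type III had overlapping ranges, 23.5% to 33.0%, 25.0% to 32.1% and 24.1% to 31.0% in the same order of groups. The highest shares of ALPN-202 and Fc control tumors were in ALPN-202 tumor 4 and Fc control tumor 1. Over 10 tumors the type III share was 23.5% to 24.8% in ALPN-202 tumors, below every anti-PD-L1 tumor, and 24.1% to 28.1% in Fc control tumors. Type V took 7.35% to 8.19% in ALPN-202 tumors, 8.25% to 9.34% in anti-PD-L1 tumors and 7.06% to 9.55% in Fc control tumors. Every ALPN-202 tumor was below every anti-PD-L1 tumor in type V share, and over 10 tumors also below every Fc control tumor (7.58% to 8.19%, against 8.37% to 9.55%).

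**Figure D4:**
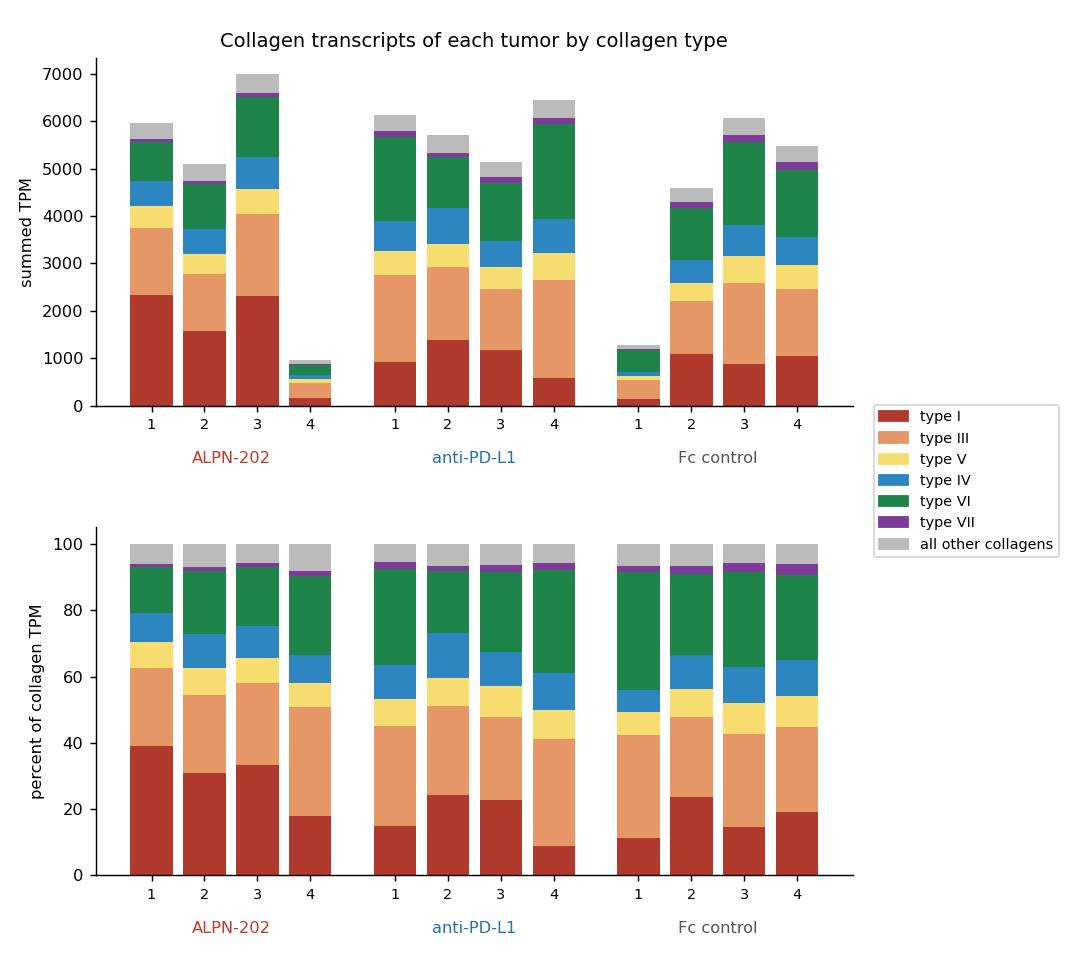
Summed collagen TPM (top) and the percent of it taken by each collagen type (bottom), with a bar for each of the 12 tumors. Type I takes 17.8% to 39.0% in ALPN-202 tumors and 11.4% to 23.8% in Fc control tumors, and type VI 13.8% to 23.8% against 24.3% to 35.8%.

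Ratios of TPM between chains, chosen after the values were seen, showed which genes kept step. Col4a1 to Col4a2 stayed at 1.28 to 1.56 in ALPN-202 tumors, 1.29 to 1.43 in anti-PD-L1 tumors and 1.30 to 1.40 in Fc control tumors, and Col6a1 to Col6a2 at 1.48 to 1.59, 1.48 to 1.73 and 1.45 to 1.64 in the same order. These 2 ratios were narrow, although Col4a1 to Col4a2 was highest of the series in ALPN-202 tumor 4 (1.56) and highest of its group in Fc control tumor 1 (1.40). Col1a1 to Col1a2 lay at 0.901 to 1.26, 1.15 to 1.33 and 0.912 to 1.39, and these 2 tumors had the lowest ratios. Other chains of the same type did not keep step: Col6a3 to Col6a1 was 0.526 to 0.907 in ALPN-202 tumors, 0.449 to 0.762 in anti-PD-L1 tumors and 0.235 to 0.610 in Fc control tumors. The low ends in ALPN-202 and Fc control tumors were those of the 2 libraries in which long transcripts were low. The longest transcripts of Col6a3 and Col6a1 have 9003 and 4100 bases, and over the other 10 tumors this ratio was 0.449 to 0.907. The part of transcript length in this ratio was not tested. Col5a2 to Col5a1 was 0.616 to 0.969 in ALPN-202 tumors, 0.249 to 0.622 in anti-PD-L1 tumors and 0.315 to 0.475 in Fc control tumors, with ALPN-202 tumors wholly above Fc control tumors. Across types the ratios also moved: Col1a1 to Col6a1 was 0.769 to 3.87 in ALPN-202 tumors, 0.344 to 1.66 in anti-PD-L1 tumors and 0.292 to 1.22 in Fc control tumors. Anti-PD-L1 tumors 1 and 4 had the highest Col6a1 of the series (844 and 935 TPM). Tumor 4 of that group also had the lowest Col1a1 over the 10 tumors (322 TPM). Col1a1 in anti-PD-L1 tumor 1 (521 TPM) lay within the range of Fc control tumors 2 to 4 (492 to 619 TPM). Col5a2 to Col5a3, both type V chains, was 0.761 to 1.36 in ALPN-202 tumors, 0.385 to 0.622 in anti-PD-L1 tumors and 0.375 to 0.591 in Fc control tumors, with no overlap between ALPN-202 and either other group over all 12 tumors. Since the pairs were picked with these values known, and the share of other gene pairs that separate was not computed, the separation is a description only.

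**Figure D5:**
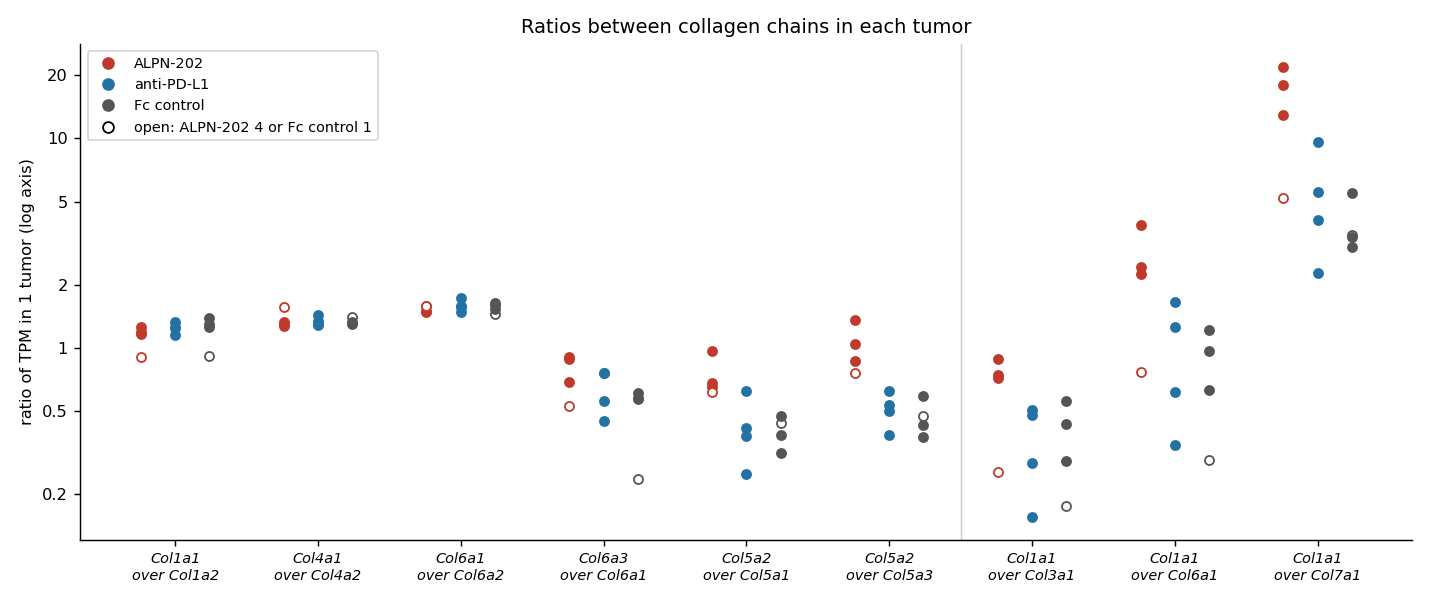
Ratio of deposited TPM between pairs of collagen genes in each tumor, on a log axis, by treatment, with pairs of the same collagen type left of the grey line. The pairs were chosen after the values were seen. Col4a1 to Col4a2 stays at 1.28 to 1.56 over all tumors, while Col6a3 to Col6a1 runs over 0.235 to 0.907. Without ALPN-202 tumor 4 and Fc control tumor 1 the latter runs over 0.449 to 0.907. Col5a2 to Col5a3 is higher in all ALPN-202 tumors (0.761 to 1.36) than in anti-PD-L1 (0.385 to 0.622) or Fc control tumors (0.375 to 0.591).

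Markers of collagen-making cells moved in part with these values. The 10 fibroblast markers (Pdgfra, Fap, Postn and others, none at 0 in any tumor) summed to 961, 710, 966 and 295 TPM in ALPN-202 tumors, 570, 876, 510 and 513 TPM in anti-PD-L1 tumors, and 336, 501, 558 and 594 TPM in Fc control tumors. As for Col1a1, ALPN-202 tumors 1 to 3 were above all Fc control tumors. Of the 10 markers, 7 had a fold change above 0 for ALPN-202 against Fc control (median 0.91) and 0 were called. Over 10 tumors 7 were above 0 (median 0.79) and 1 was called higher, where 5.47% of all genes were. Against anti-PD-L1 over 10 tumors, 6 were above 0 (median 0.46) and 1 was called higher, where 4.5% of all genes were. Pericyte and smooth muscle markers summed to 117 to 427 TPM in ALPN-202 tumors, 161 to 532 TPM in anti-PD-L1 tumors and 123 to 258 TPM in Fc control tumors, with 9 of 10 above 0 against Fc control. Endothelial markers summed to 59.2 to 289 TPM in ALPN-202 tumors, 154 to 378 TPM in anti-PD-L1 tumors and 58.0 to 198 TPM in Fc control tumors, with 10 of 10 above 0 for each drug against Fc control. The sums of anti-PD-L1 tumors 1, 3 and 4 (159, 154 and 176 TPM) lay among those of Fc control tumors 2 to 4 (162, 154 and 198 TPM). Over 10 tumors 9 of 10 endothelial markers were above 0 for ALPN-202 (median 0.59) and 10 of 10 for anti-PD-L1 (median 0.34). Adipocyte markers reached 1944 TPM in ALPN-202 tumors, 14878 TPM in anti-PD-L1 tumors and 2266 TPM in Fc control tumors. Their part in the collagen values was not tested.

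Genes that act on collagen were read from lists fitted in the same table. Over 12 tumors 0 genes were called in any of these lists. The 5 cross-linking enzymes, which join collagen chains through lysine, all had log2 fold changes above 0 for ALPN-202 against Fc control (median 0.61), led by Loxl2 at 1.18 (SE 0.43, edgeR adjusted p = 0.408), and for anti-PD-L1 against Fc control (median 0.44). Of 10 fibril-binding proteins, 7 were above 0 for ALPN-202 against Fc control (median 0.52), with Fmod at 1.13 and Lum at 0.93, small proteoglycans that coat fibrils. The 13 enzymes that modify the chains in the cell, such as Plod2 (-0.49), had 3 above 0 and a median of -0.10, and the 4 chaperones 1 above 0 and a median of -0.18. Of 6 genes for procollagen processing 4 were above 0 (median 0.07), with Adamts2, which removes the N-terminal propeptide, at 1.24. Over all tested genes the median for ALPN-202 against Fc control was 0.04, with 56.1% above 0. The summed TPM of the modifying enzymes was highest of its group in ALPN-202 tumor 4 (3498.5 TPM) and Fc control tumor 1 (4207 TPM). That of the cross-linking enzymes was lowest of its group in both (34.4 and 42.2 TPM).

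Among the partners of type IV in basement membranes, such as laminins, nidogens and perlecan, 8 of 14 were above 0 for ALPN-202 against Fc control (median 0.15), 13 of 14 for anti-PD-L1 against Fc control (median 0.52) and 1 of 14 for ALPN-202 against anti-PD-L1 (median -0.42). The type IV genes had medians of the same signs. Over 10 tumors the medians of these partners were 0.053 (7 of 14 above 0), 0.29 (14 of 14) and -0.24 (2 of 14). Collagen receptors had 4 of 8 above 0 for ALPN-202 against Fc control (median 0.11), with Itga1 at 1.34 and Itga11 at 1.36, integrin chains that bind collagen. Of 6 collagen-cutting proteases, 5 were above 0 (median 0.19), led by the neutrophil collagenase Mmp8 at 2.26 (edgeR adjusted p = 0.283). Of 8 TGF-beta genes and targets, 7 were above 0 (median 0.42), with Tgfb3 at -0.90.

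Over 10 tumors, the median for ALPN-202 against Fc control was 0.61 for the cross-linking enzymes, 0.58 for the fibril-binding proteins, -0.19 for the modifying enzymes, -0.23 for the chaperones, 0.067 for processing, 0.21 for the receptors, 0.31 for the proteases and 0.54 for the TGF-beta genes, and that of the cross-linking enzymes for anti-PD-L1 against Fc control was 0.24. Loxl2 (1.25, edgeR adjusted p = 0.0351), Loxl3 (0.67, 0.0227), Itga1 (1.43, 0.0255), Mmp8 (2.43, 0.0139) and Tgfbi (0.78, 0.0498) rose in ALPN-202 tumors against Fc control tumors. Against anti-PD-L1 tumors, Itga11 (1.88, edgeR adjusted p = 0.0253), Mmp8 (1.70), Tgfb1 (0.50) and Tgfbi (0.81) rose and Ddr1, a collagen receptor kinase, fell by 0.45 (adjusted p = 0.0465). In the same tumors 7 of 8 T cell markers were called higher against Fc control, where 5.47% of all genes were. Against anti-PD-L1, 5 of 8 were called higher, where 4.5% of all genes were. Of the macrophage markers, 5 of 8 were called higher in each comparison (medians 1.01 and 1.00). All 8 markers of both lists had fold changes above 0 in both comparisons. The macrophage markers summed to 7191, 6344, 6388 and 2476 TPM in ALPN-202 tumors, 2308 to 4327 TPM in anti-PD-L1 tumors and 3054 to 4738 TPM in Fc control tumors. The T cell marker sums over 12 tumors were 97.2 to 310 TPM in ALPN-202 tumors, 29.4 to 113 TPM in anti-PD-L1 tumors and 41.1 to 76.2 TPM in Fc control tumors. The part of both marker lists in the collagen values was not tested.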

How the data were processed

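RNA from 12 tumors was amplified with the SMART-Seq v4 kit, made into NexteraXT libraries without strand information and read as 58-base single reads. The authors trimmed read ends, aligned to the mouse genome and deposited raw gene counts from htseq-count; their methods name STAR, while the submitters' processing notes list TopHat 1.4.1, HTSeq 0.4.1 and NCBIM37, so the aligner is not settled here. The authors also deposited TPM, computed with NCBIM37 gene lengths. Levels are given in TPM and tests use counts.

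Counts were fitted in edgeR 4.0.16 (R 4.3.3; quasi-likelihood, TMM, filterByExpr with a minimum of 10) with all 12 tumors in 1 fit, and p-values were adjusted by Benjamini-Hochberg over 14142 genes at 0.05. CPM is TMM-scaled. Overlap of TPM was read over 14078 genes. DESeq2 1.42.0, limma 3.58.1 on log2 TPM, other filters and scalings, left-out tumors and a replicate block were alternatives. The main edgeR fit and DESeq2 were tested on simulated counts for ALPN-202 against Fc control, and limma on simulated normal values. The other comparisons and alternatives, the fit over 10 tumors included, were not simulated. The members, the marker and gene lists and the 2 libraries left out were chosen with earlier results of these data known. TPM in each tumor is given for the 10 most abundant measured members, the 3 with the smallest p in each comparison, called members and the 4 with the widest range of log2 CPM, and up to 2 genes with the smallest p from each other list. Others are named as chosen after their values were seen. A gene of these lists is not reported here. Coordinates are NCBIM37. RefSeq promoters were at hand for 35 of 43 members.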

Additional observations from a re-analysis of the deposited data

Results flagged for a closer look

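The TPM of 18 named collagen genes and the summed TPM of 3 classes were looked through for tumors far from the others of their treatment, in 63 groups of 4 tumors, by Dixon's 95% critical value, which chance passes in about 1 group in 20. Col15a1 stood at 70.7 TPM in anti-PD-L1 tumor 2, against 21.9 to 27.9 TPM in the other 3 anti-PD-L1 tumors. Col17a1 stood at 12.4 TPM in ALPN-202 tumor 2, against 0.0650 to 0.424 TPM in the other 3 ALPN-202 tumors. Keratinocyte, adipocyte and endothelial marker sums of these tumors are given beside both genes, and their part was not tested.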

How the results depend on the processing

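Of 502 values of 21 single-gene fold changes under 24 alternatives, 496 kept their sign and 6 turned. The log2 fold change of Col3a1 for ALPN-202 against Fc control (0.12) became -0.047 on log2 TPM with a pseudocount of 1 or 0.1, -0.12 without Fc control tumor 1 and -0.08 without ALPN-202 tumor 3, within a range of -0.12 to 0.32 when 1 tumor was left out. That of Col1a1 for anti-PD-L1 against Fc control (0.27) became -0.060 without Fc control tumor 1, within a range of -0.060 to 0.51, and -0.041 without that tumor and ALPN-202 tumor 4. The cause was not tested. Collagen genes called were 0 under the other alternatives, and without both libraries 2 for ALPN-202 against Fc control and 1 for ALPN-202 against anti-PD-L1. Leaving out 1 tumor at a time called 0 to 0 collagen genes in each comparison, with medians of 0.04 to 0.37 (ALPN-202 against Fc control), 0.05 to 0.47 (anti-PD-L1 against Fc control) and -0.44 to -0.15 (ALPN-202 against anti-PD-L1). A fit with the replicate number as a block called 0, with medians of 0.14, 0.27 and -0.38 in the same order. Over all genes, edgeR with this block, other filters, other scalings or length offsets also called 0. So did each fit without 1 tumor, except that without ALPN-202 tumor 4. There, ALPN-202 against Fc control had 365 of 14433 genes higher and 63 lower. Without the 4 tumors of high adipocyte genes, 359 of 14321 genes were higher and 21 lower in that comparison. Of 12 tumors, 1 matched best the tumors of its own number, so the numbers were not taken as pairs. With offsets for the length trend, Col7a1 had -1.05 (edgeR adjusted p = 0.213). On log2 TPM the median over all genes lay at -0.12, 0.13 and -0.24, against 0.04, -0.03 and 0.07 in edgeR. Under the strict filter Col8a2 and Col20a1 were not tested. Few counts limit the low genes: under 10 counts in most tumors left 12 members unmeasured. With 4 tumors a group, the standard errors derived from the edgeR fit were 0.13 to 1.20 in log2 for collagen genes.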
